A study of Mus musculus with 8 samples.

Results

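The border zone of infarcted TKO hearts was compared with TKO left ventricle, 1 RNA-seq library against 1, among the 8 libraries of a series on the mouse heart after myocardial infarction (MI). TKO mice lack TIGAR in the whole body; how their line was made is not given in the sources used here. Male mice had the left anterior descending coronary artery tied permanently at 16 weeks of age. Each genotype, WT and TKO, gave 1 library of left ventricle, 1 of the remote zone, 1 of the border zone and 1 of the infarct zone. The label of the left ventricle libraries names no operation, and whether these hearts had sham surgery is not given in the sources used here. The study states a pool of 3 mice for the infarct zone libraries, and the number of mice behind the other libraries and the day of collection for RNA are not given. Of 16994 genes listed, 12999 had a mean of at least 1 CPM (counts per 1000000 counts) over the 8 libraries, and all 12999 enter the comparison. This filter used CPM before scaling by the trimmed mean of M values (TMM), and the ratios used values after it.

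The border zone is the living muscle next to the infarct scar. Fibroblasts there turn into matrix-secreting cells, immune cells enter from the scar, and muscle cells commonly take up a fetal gene programme and lower their use of fatty acids. TIGAR is a phosphatase that removes fructose 2,6-bisphosphate, an activator of glycolysis, and so directs glucose carbon toward NADPH. Fewer cells of a type and less RNA per cell cannot be told apart in such tissue libraries.

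The TKO border zone library held 33218328 counts and the TKO left ventricle library 29894294, within the range of 27429240 to 33799249 over the 8 libraries. Tigar itself had 51, 87, 79 and 87 counts in TKO left ventricle, remote, border and infarct zone, against 1965, 1997, 2215 and 1066 in the same WT regions, so the TKO labels held in every library. The 5 ventricular muscle markers (Myh6, Myl2, Tnnt2, Tnni3 and Actc1) summed to 28138 CPM in the TKO border zone and 31935 CPM in TKO left ventricle, and mitochondrially encoded genes took 38.8% and 36.6% of the counts. With 1 library a side there is no replicate check, no standard deviation and no p-value for the TKO comparison. Ratios are given with exact 95% intervals that cover counting error only, because 1 library a side gives no spread between hearts. The intervals also leave out any error in dividing reads among similar transcripts. Molecular identifiers are not mentioned in the sources used here, so the counts may not be of separate molecules, and even counting error may be larger.

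Most genes differed little. The ratio of border zone over left ventricle had a median of 0.992 over all genes, and 11001 genes (84.6%) lay within 1.5-fold. With a prior count of 2 in both libraries, the TKO border zone held 575 genes at 2-fold or more above TKO left ventricle (4.42%) and 220 at 2-fold or more below it (1.69%). In WT hearts, whose 2 libraries are not shared with the TKO comparison, 708 genes (5.45%) were at least 2-fold higher and 239 (1.84%) lower. The higher sets shared 204 genes, which is 35.5% of the TKO set and 28.8% of the WT set, and the lower sets shared 26 genes, 11.8% and 10.9% of them. The lists of genes described next were drawn up with earlier results of these libraries known.

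Many of the ratios depended on which library served as the reference. It was the lowest of all 8 libraries for 2769 genes (21.3% of those tested), fewer than the 4552 (35.0%) of the WT infarct zone and more than the 576 to 1788 of the other 6. It was the lowest for 459 (79.8%) of the 575 genes that were higher in the border zone and the highest for 112 (50.9%) of the 220 lower genes, shares that the choice of those genes by this library raises by itself. The remote zone of the TKO hearts, set against the same left ventricle library, also had 404 genes at least 2-fold higher (3.11%) and 199 lower (1.53%). With WT left ventricle in place of TKO left ventricle, 303 genes (2.33%) were higher in the TKO border zone and 220 (1.69%) lower. With the TKO remote zone as the reference there were 227 (1.75%) and 115 (0.885%). Only 66 genes were at least 2-fold higher, and 39 lower, against all 3 references. Values against TKO left ventricle are therefore given first, with those against the other references where they change a call or a direction and for the larger groups.

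**Figure D1:**
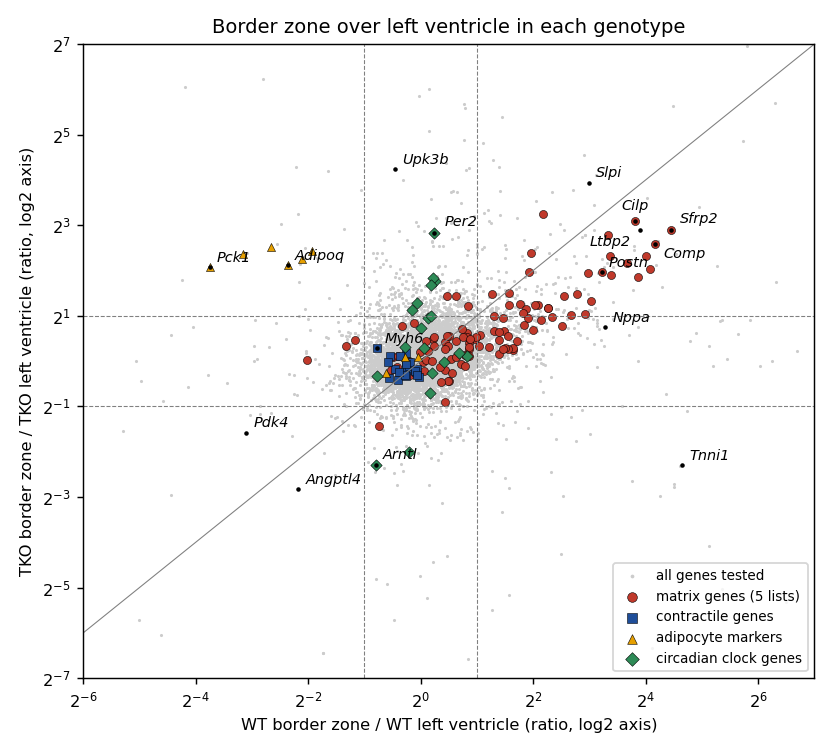
Ratio of border zone over left ventricle for each gene, WT on the horizontal axis and TKO on the vertical axis, both log2, with dashed lines at 2-fold and a solid diagonal. Matrix, contractile, adipocyte and clock genes are coloured and 11 genes lie outside the axes; matrix genes lie to the upper right and mostly under the diagonal, adipocyte markers to the upper left, and clock genes along the vertical axis with WT ratios near 1.

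Genes of the extracellular matrix were higher in the TKO border zone far more often than other genes. Of 107 matrix genes measured in 5 lists (collagens in 2 lists, glycoproteins and proteoglycans, matricellular proteins, and collagen-processing enzymes), 33 were at least 2-fold higher and 1, Tnxb, at least 2-fold lower. That is 30.8% of the matrix genes beside 4.42% of all genes, and their median ratio was 1.45 beside 0.992. Against WT left ventricle 25 of the 33 were also at least 2-fold higher, and against the TKO remote zone 14 were, with medians of 1.40 and 1.25 over the 107 genes. Of all 575 higher genes, 140 (24.3%) were also higher against WT left ventricle and 139 (24.2%) against the TKO remote zone. The levels of 29 of the 33 (87.9%) followed the order left ventricle, remote, border and infarct zone in the TKO libraries, an order that 1896 genes (14.6%) held in the whole table.

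Matricellular genes, whose proteins act on cells and growth factors rather than bear load, had many members that were higher. Of 24 measured, 13 were at least 2-fold higher and 0 lower, with a median of 2.28 against TKO left ventricle, 1.78 against WT left ventricle and 1.5 against the TKO remote zone. Cilp (chr9:65265180-65280605, plus strand, GRCm38), the gene of cartilage intermediate layer protein, an inhibitor of TGF-beta signalling, measured 8.34 CPM in TKO left ventricle, 26.6 in remote, 71.3 in border and 362 in infarct zone. The WT libraries held 13.8, 69.4, 196 and 358 CPM in the same order. Levels were higher nearer the infarct in both genotypes, and the border zone over left ventricle ratio was 8.55 in TKO (interval 7.43 to 9.88) and 14.2 in WT. Sfrp2 (chr3:83766321-83774316, plus strand), a secreted modulator of Wnt signalling, measured 4.05, 9.10, 30.4 and 359 CPM along the same TKO regions and 4.05, 27.0, 90.2 and 520 CPM in WT. Its left ventricle levels were alike in the 2 genotypes, and its ratio was 7.51 (6.13 to 9.28) in TKO beside 22.3 in WT. Comp (chr8:70373558-70382066, plus strand), a pentameric organiser of collagen fibrils, measured 11.3, 24.4, 68.6 and 843 CPM in TKO and 11.8, 63.7, 212 and 1272 CPM in WT, a ratio of 6.06 (5.36 to 6.88) beside 18.0. Thbs4, a thrombospondin of strained muscle and tendon, was 3.64 times higher in TKO (3.15 to 4.23) and 14.7 times in WT. Postn, the periostin gene of activated fibroblasts, measured 39.0 CPM in TKO left ventricle, 72.1 in remote, 151 in border and 702 in infarct zone, a ratio of 3.88 (3.63 to 4.16) beside 9.33 in WT.

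**Figure D2:**
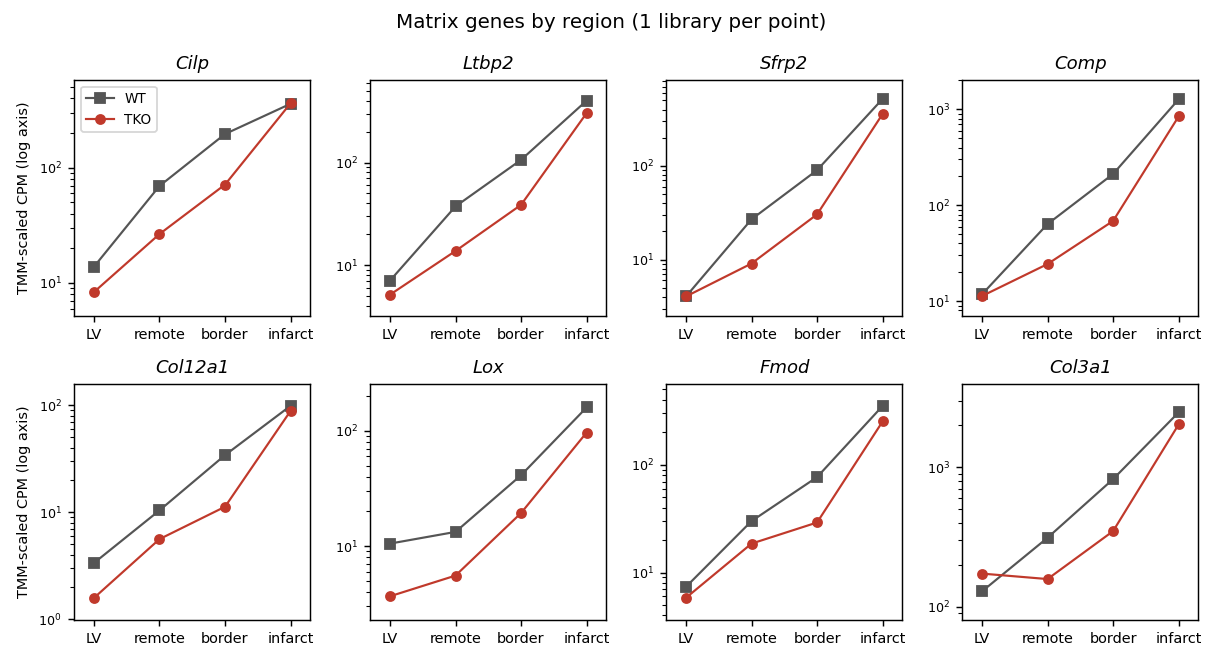
Scaled CPM (log axis) of 8 matrix genes in left ventricle, remote, border and infarct zone, 1 point per library, WT as grey squares and TKO as red circles. Most panels climb from left ventricle to infarct in both genotypes, and the TKO border zone point lies under the WT border zone point in each.

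Collagen genes were higher as well, by smaller factors for the abundant fibril formers. Of 13 fibrillar and fibril-associated collagen genes 8 were at least 2-fold higher and 0 lower, with a median of 2.21, and 7 of the 8 were also at least 2-fold higher than in WT left ventricle. Their medians were 2.05 against WT left ventricle and 1.71 against the TKO remote zone. Col3a1, the type III collagen of early scars, measured 173 CPM in TKO left ventricle, 158 in remote, 349 in border and 2032 in infarct zone, and 129, 312, 823 and 2484 CPM in the WT regions. The TKO remote zone stayed at the level of the left ventricle while the WT remote zone lay above it. The ratio of border zone over left ventricle was 2.02 (1.95 to 2.09) in TKO and 6.4 in WT. Type I collagen gave ratios of 2.21 (2.10 to 2.33) for Col1a1 and 2.34 (2.24 to 2.44) for Col1a2, beside 3.66 and 4.22 in WT. Col12a1 (chr9:79598991-79718831, minus strand), which links fibrils and is not abundant in resting heart, went from 41 to 334 counts, a ratio of 7.11 (5.13 to 10.1) beside 10.2 in WT. Of 20 other collagen genes 4 were at least 2-fold higher (Col9a2, Col7a1, Col28a1 and Col8a2) and 0 lower, with a median of 1.32, and 2 of the 4 also against WT left ventricle. Col8a2, a short-chain collagen, had a ratio of 4.20 (2.95 to 6.13) in TKO and 17.9 in WT.

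The enzymes that finish and link collagen, and the proteins that decorate it, held fewer such genes. Of 18 processing and crosslinking genes 4 were at least 2-fold higher: Lox and Loxl3, which oxidise lysines for crosslinks, Adamts2, which trims procollagen, and P4ha3, a prolyl hydroxylase subunit. Lox measured 3.67, 5.55, 19.4 and 96.6 CPM along TKO left ventricle, remote, border and infarct zone, and 10.5, 13.3, 41.2 and 160 CPM in WT. Its TKO ratio of 5.28 (4.24 to 6.63) was above the WT ratio of 3.92, and against the higher WT left ventricle the TKO border zone was 1.84 times higher. Among 32 glycoprotein and proteoglycan genes Mfap4, Mfap5, Fmod and Acan were at least 2-fold higher and Tnxb lower. Fmod (chr1:134037254-134048277, plus strand), a small proteoglycan that sets fibril diameter, had a ratio of 5.0 (4.20 to 5.99) beside 10.4 in WT. Acan, the large cartilage proteoglycan, had 0 counts in TKO left ventricle and 16 in the border zone, and 3 and 22 in WT. Tnxb, a tenascin, measured 7.72 CPM in TKO left ventricle and 1.04 to 3.47 CPM in the other 7 libraries, so its TKO ratio of 0.367 (0.281 to 0.475) was set by the left ventricle library.

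Signals and proteases around the matrix followed with fewer genes. Of 25 metalloproteinase and inhibitor genes 6 were at least 2-fold higher (Adamts1, Timp3, Mmp12, Adamtsl2, Timp1 and Mmp19) and 1 lower (Adamts4). Against WT left ventricle only Timp1 of the 6 was still at least 2-fold higher, at 3.58, and the median of the list went from 1.47 to 1.22. Timp1, an inhibitor of collagenases, had 41 and 186 counts in the TKO pair, a ratio of 3.96 (2.81 to 5.70) beside 9.19 in WT. Adamts4, which cleaves proteoglycans, had 15 and 5 counts in TKO and 7 and 35 in WT, and its TKO ratio of 0.291 (0.0827 to 0.842) rests on those few counts. Of 30 genes of the TGF-beta and Wnt pathways Ltbp2, Dkk3 and Grem1 were at least 2-fold higher and 0 lower, with a median of 1.27, and 2 of the 3 also against WT left ventricle. Ltbp2 (chr12:84783212-84876532, minus strand), a microfibril protein of the latent TGF-beta binding family, measured 5.14, 13.7, 38.7 and 304 CPM along the TKO regions and 7.04, 37.3, 106 and 402 CPM in WT, a ratio of 7.53 (6.29 to 9.08) beside 15.1. Activated fibroblast genes had 9 of 23 members at least 2-fold higher, while resident fibroblast markers had 1 of 12, Mfap5, with medians of 1.41 and 1.16. Against WT left ventricle 7 of the 9 activated fibroblast genes were still at least 2-fold higher, and Mfap5 was not.

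Set beside WT, the TKO border zone held less of most of the matrix transcripts that were higher in it. Over the 107 matrix genes the median ratio was 1.45 in TKO and 1.96 in WT, and 26 of the 33 higher genes had a smaller ratio in TKO. The ratio was smaller in TKO for 82 of the 107 matrix genes and for 6660 of all 12999 genes tested. In 32 of the 33 the TKO border zone level itself was below the WT border zone level, a comparison that does not involve either left ventricle library. The same count was not made over all genes, so whether 32 of 33 is above the share of genes at large is not known. Whether this difference exceeds the spread between hearts cannot be tested with 1 library per group.

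A test across the series was possible for region but not for TKO alone. The quasi-likelihood test of edgeR, with p-values adjusted by Benjamini-Hochberg, was fitted to all 8 libraries with genotype and region as additive terms and compared the 2 border zone libraries with the 2 left ventricle libraries. It called 87 genes higher (0.669%) and 6 lower (0.0462%) at an adjusted p under 0.05. Its spread is how far the 2 genotypes differ in their region pattern, so the p-values concern these libraries and not mice. Of the 87 higher genes, 59 were at least 2-fold higher in TKO, 20 belonged to the matrix lists and 61 had a smaller ratio in TKO than in WT. Among all 12999 genes tested these counts were 575, 107 and 6660. The test includes the 2 libraries of the TKO ratio, so the overlap with the 2-fold genes is in part built in and is no separate evidence for them. The ratios of the 87 ranged from 1.55 to 123 in TKO after the prior count, with medians of 2.38 in TKO and 3.18 in WT. Cilp passed with a log2 fold change of 3.49 (adjusted p = 0.0334 by edgeR), Ltbp2 with 3.44 (0.0300) and Col1a1 with 1.51 (0.0413), whereas Col3a1 (log2 fold change 1.81, adjusted p = 0.114 by edgeR) and Postn (2.60, adjusted p = 0.0607) did not. DESeq2's Wald test on the same model called 476 genes higher and 100 lower and gave Col3a1 an adjusted p of 2.79e-05 and Postn 2.56e-10. The count of calls by edgeR depended on the infarct zone libraries: without those 2 libraries 6 genes were higher and 0 lower by edgeR, and with the 4 border zone and left ventricle libraries alone 0 and 0, at 907 and 641 genes with an unadjusted p under 0.05.

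Several secreted proteins of inflammation and several immunoglobulin genes, described here one by one, had counts in every library and ratios above 10. The genes named from here to the end of the paragraph, other than Slpi, Ighg1, Ighg2b, Jchain, Ighm and the list members, were chosen after their values were seen. Saa3, a serum amyloid A of inflamed tissue, had 15, 28, 230 and 1185 counts in TKO left ventricle, remote, border and infarct zone and 23, 129, 449 and 2145 in WT. Its border zone ratio was 13.4 (7.95 to 24.3) in TKO and 17.4 in WT, it was 9.24 against WT left ventricle and 8.34 against the TKO remote zone, and it passed the region test (adjusted p = 0.0300 by edgeR). Slpi, a secreted inhibitor of neutrophil elastase, had 14, 20, 272 and 1478 counts in TKO and 38, 66, 353 and 1659 in WT, a ratio of 17.0 (9.94 to 31.4) beside 8.26. In TKO hearts the step in Slpi lay between the remote and the border zone, with a ratio of 13.8 between them. Ighg2b, an immunoglobulin G heavy chain made by plasma cells, had 22, 26, 468 and 2588 counts in TKO and 66, 88, 661 and 4138 in WT, a ratio of 18.6 (12.1 to 29.9) beside 8.91. Igha, the heavy chain of immunoglobulin A, had a ratio of 11 (9.58 to 12.8) beside 8.49. Ighg1 had 9 counts in TKO left ventricle, 14 in the remote zone and 342 in the border zone, but WT left ventricle held 219, so its ratio of 33.2 (17.3 to 73.2) against TKO left ventricle was 1.44 against WT left ventricle. Jchain, which joins antibody units, likewise had a ratio of 13.9 (10.2 to 19.4) against TKO left ventricle and 0.922 against WT left ventricle.

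Markers of immune cells divided by cell type. Of 29 macrophage and monocyte markers 0 were at least 2-fold higher or lower in the TKO border zone, although 24 had a ratio above 1 and their median was 1.37. Of 7 neutrophil and mast cell markers 5 were at least 2-fold higher (Csf3r, Mcpt4, S100a9, Cxcr2 and S100a8), 3 of them also against WT left ventricle, at low levels: the list summed to 10.9 CPM in TKO left ventricle and 17.0 in the border zone, beside 11.5 and 43.3 in WT. S100a8, a calcium-binding alarm protein of neutrophils, went from 12 to 66 counts in TKO and from 14 to 321 in WT. Of 14 lymphocyte markers 5 were at least 2-fold higher (Cd8a, Cd3g, Lck, Jchain and Il7r) with a median of 1.67, but the median against WT left ventricle was 0.844. That list summed to 16.2 CPM in TKO left ventricle, 26.7 in remote, 50.1 in border and 249 in infarct zone, and to 141 CPM in WT left ventricle. Ighm, the heavy chain of immunoglobulin M, held 98.7 CPM in WT left ventricle against 8.11 in TKO left ventricle and 14.5 in the TKO border zone. Of the 14 lymphocyte genes 0 were higher in TKO than in WT left ventricle, and the median ratio between these libraries was 0.266. The high sum in WT left ventricle rested mostly on Ighm. Il7r and Lck had 18 and 10 counts in WT left ventricle and 56 and 33 in the WT border zone. Of the 5 higher genes only Lck was also at least 2-fold higher against WT left ventricle, at 3.42. The part of the lymphocyte genes in the antibody ratios was not tested.

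Genes of the immune response showed the same dependence on the reference. Of 13 antigen presentation genes 6 (H2-Ab1, Ciita, H2-DMb1, H2-Aa, Cd74 and H2-Eb1) were at least 2-fold higher than in TKO left ventricle and 0 of them at least 2-fold higher than in WT left ventricle. H2-Aa, a class II chain, measured 24.6, 40.6, 51.9 and 136 CPM along the TKO regions and 57.6, 52.9, 74.4 and 233 CPM in WT. Its level in TKO left ventricle was the lowest of the 8. Of 20 complement genes 6 were at least 2-fold higher (C7, C3, Cfb, C2, C4b and Cfd), 0 of them against WT left ventricle. C3, the central component, had a ratio of 2.44 (2.32 to 2.56) beside 1.84 in WT. Of 28 chemokine and cytokine genes 5 were at least 2-fold higher (Ccl12, Ccl21a, Il33, Cxcl13 and Ccl8). Against WT left ventricle only Ccl8 of the 5 was still at least 2-fold higher, and the median of the list went from 1.17 to 0.914. Ccl8, a monocyte attractant, had 10, 62, 92 and 347 counts along the TKO regions, a ratio of 8.03 (4.18 to 17.3), and passed the region test (adjusted p = 0.0300 by edgeR). Il33, an alarm cytokine of stromal cells, had a ratio of 3.13 (2.46 to 4.0) beside 3.36 in WT. Among 19 interferon-stimulated genes 0 were at least 2-fold higher, with a median of 1.16.

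**Figure D3:**
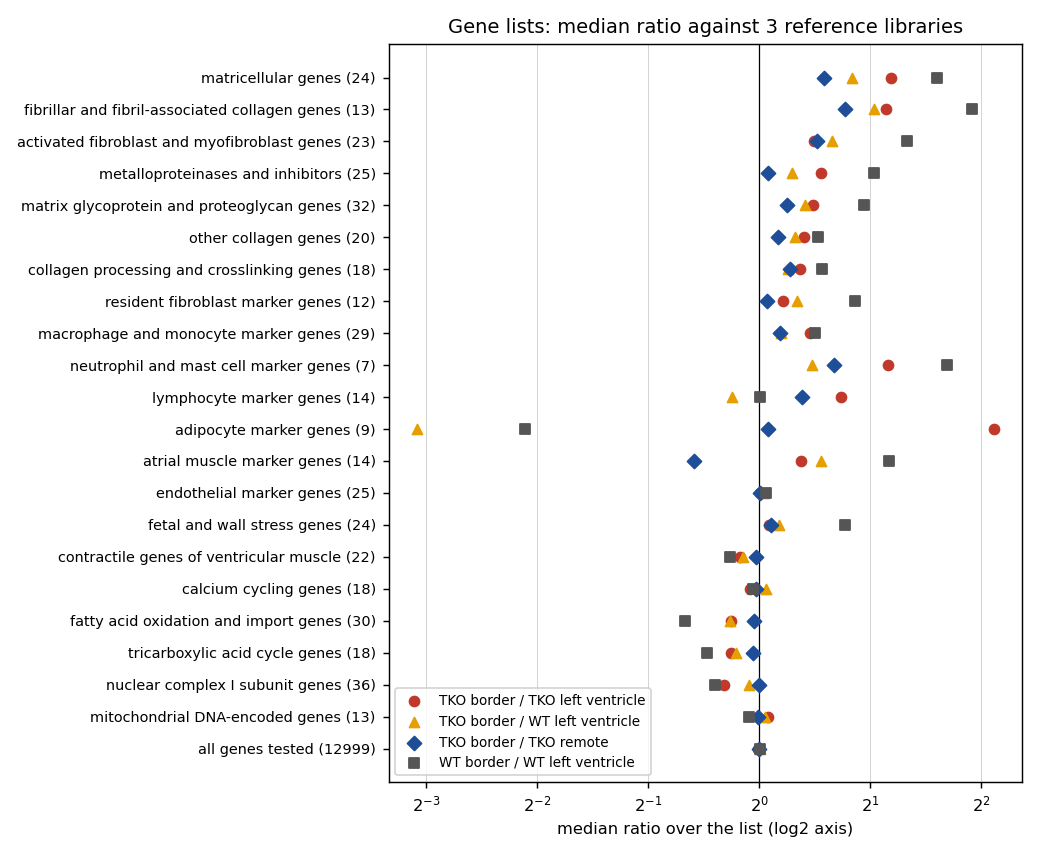
Median ratio of each of 21 gene lists, and of all genes, on a log axis for TKO border zone over TKO left ventricle (red circles), over WT left ventricle (orange triangles) and over TKO remote zone (blue diamonds), and for WT border zone over WT left ventricle (grey squares). Matrix lists lie above 1 for all 4, lists of nuclear metabolic genes lie at or below 1, and the adipocyte list has its red circle at 4.33 and its orange triangle at 0.118.

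The contractile apparatus differed little. Of 22 contractile genes of ventricular muscle 0 were at least 2-fold different, 18 had a ratio below 1, and the median was 0.885 beside 0.832 in WT. Tnni3, the cardiac inhibitory troponin, measured 4245 CPM in TKO left ventricle, 3326 in remote, 3258 in border and 1570 in infarct zone, a ratio of 0.767 (0.761 to 0.774) beside 0.678 in WT. Myl2, the ventricular regulatory light chain, had ratios of 0.754 in TKO and 0.753 in WT. Myh6, the adult myosin heavy chain, went the other way, from 5944 to 7248 CPM, a ratio of 1.22 (1.21 to 1.23) beside 0.587 in WT, where left ventricle held 8921 CPM. Against that WT library the TKO border zone ratio of Myh6 was 0.812. Its sequence overlaps that of Myh7, with 70.8% of its 31-base words found in no other gene, so the split of reads between the pair is uncertain.

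Of 24 fetal and wall stress genes only Uchl1, a neuronal ubiquitin hydrolase, was at least 2-fold higher in the TKO border zone and only Tnni1 lower, while 11 were at least 2-fold higher in the WT border zone. Against WT left ventricle Uchl1 was no longer 2-fold higher, and Tnni1 was still at least 2-fold lower. Nppa, the atrial natriuretic peptide, measured 280, 489, 468 and 2086 CPM along the TKO regions and 173, 1962, 1674 and 2987 CPM in WT. The TKO border zone was at the level of the TKO remote zone and its ratio was 1.67 (1.63 to 1.72) beside 9.69. Only 43.2% of the 31-base words of Nppa are unique to it. Myh7, the slow myosin of the fetal programme, had a ratio of 1.65 (1.61 to 1.69) beside 6.12, and Ankrd1, a strain-responsive sarcomere protein, 1.35 (1.26 to 1.44) beside 5.14. Nppb, the B-type natriuretic peptide, measured 398, 237, 311 and 379 CPM in TKO and 103, 338, 515 and 332 CPM in WT, a ratio of 0.783 (0.761 to 0.806) beside 4.98. Nppb and Ankrd1 started higher in TKO left ventricle than in WT left ventricle, and against WT left ventricle the TKO border zone held 3.01 times as much Nppb and 2.88 times as much Ankrd1. Tnni1, the slow skeletal troponin of the fetal heart, had 15, 13, 2 and 158 counts along the TKO regions and 7, 170, 243 and 223 in WT. Atrial muscle markers, which would mark atrial tissue in a sample, had a median of 1.30 and 1 of 14 members at least 2-fold higher (Dkk3), and summed to 1494 CPM in the TKO border zone, 1403 in TKO left ventricle and 1838 in the TKO remote zone. Their part in the natriuretic peptide levels was not tested.

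Ion channel genes held a few larger differences. Of 18 calcium cycling genes 0 were at least 2-fold different, and Atp2a2, the calcium pump of the sarcoplasmic reticulum, had a ratio of 0.950 beside 0.626 in WT. Kcna5 and Kcnj8 were at least 2-fold higher among 20 potassium channel genes, neither of them against WT left ventricle. Kcna5, an ultrarapid delayed rectifier, measured 17.0, 33.3, 35.1 and 20.1 CPM along the TKO regions and 38.1, 25.3, 24.3 and 11.8 CPM in WT, and among these only the WT infarct zone lay below TKO left ventricle. Cacna1h, a T-type calcium channel, measured 6.53, 3.09, 2.06 and 2.55 CPM in TKO and 9.63, 15.1, 8.63 and 7.16 CPM in WT, a ratio of 0.315 (0.231 to 0.425) beside 0.896. Its TKO border zone level was below both left ventricle libraries. Ace, which makes angiotensin II, had a ratio of 2.06 (1.92 to 2.21) beside 1.96, and was not 2-fold higher against WT left ventricle.

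Metabolic genes were lower together by small amounts. Of 36 nuclear complex I subunit genes all had a ratio below 1, with a median of 0.804 beside 0.760 in WT, and only Ndufa9 was at least 2-fold lower. Against WT left ventricle the complex I median was 0.941, and all 36 genes were higher in TKO than in WT left ventricle. Ndufa9 had 458 counts in TKO left ventricle, 159, 66 and 95 in the other TKO regions, and 36, 97, 0 and 0 in WT left ventricle, remote, border and infarct zone. It was higher in TKO than in WT in each region. The left ventricle was its highest region in TKO and the remote zone in WT. Tricarboxylic acid cycle genes had a median of 0.840 and 17 of 18 members below 1, and genes of branched-chain amino acid and ketone use a median of 0.869 with 19 of 21 below 1. Genes of fatty acid oxidation and import had a median of 0.838 beside 0.630 in WT, with 26 of 30 below 1. In the order of these lists, the medians of TKO remote zone over TKO left ventricle were 0.807, 0.886, 0.934 and 0.886. The medians of TKO border zone over TKO remote zone were 0.997, 0.962, 0.959 and 0.967, beside 0.999 over all genes. Within the mitochondrial genome the 13 protein-coding genes had a median of 1.06.

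Single genes of lipid and glucose use differed by more. Angptl4, an inhibitor of lipoprotein lipase induced by fatty acids, measured 17.9, 2.66, 2.46 and 4.0 CPM along the TKO regions and 28.6, 3.48, 6.26 and 9.08 CPM in WT. It was low in every region of the infarcted hearts in both genotypes, with a border zone ratio of 0.137 (0.106 to 0.176) in TKO and 0.219 in WT, and it passed the region test (log2 fold change -2.49, adjusted p = 0.0300 by edgeR). Pdk4, which keeps pyruvate out of the mitochondrial cycle, measured 420, 161, 141 and 73.0 CPM in TKO and 1312, 162, 153 and 60.7 CPM in WT. The border zone levels of Pdk4 were near each other in the 2 genotypes, and the ratios of 0.335 (0.323 to 0.347) and 0.116 differed with the left ventricle level. Ucp3, a mitochondrial carrier of muscle, followed Pdk4 with ratios of 0.504 (0.468 to 0.543) and 0.138. Txnip, a thioredoxin-binding protein that limits glucose uptake, had ratios of 0.488 (0.476 to 0.499) and 0.512 and passed the region test (log2 fold change -1.0, adjusted p = 0.0447 by edgeR). The other 4 genes that passed as lower were Cited2, Sox10, Adi1 and Rps7-ps3. Rps7-ps3 had a WT ratio of 1 after the prior count and an adjusted p of 0.443 by DESeq2's Wald test. Sox10 was named as the lowest of its list, and Angptl4, Txnip, Cited2 and Adi1 were named after their values were seen. Of 24 glycolysis and glucose uptake genes only Pfkfb3 was at least 2-fold higher and 0 were lower, with a median of 0.872. Pfkfb3, which makes the fructose 2,6-bisphosphate that TIGAR removes, measured 6.53, 14.4, 16 and 23.8 CPM along the TKO regions and 14.4, 12, 16 and 30.3 CPM in WT, a ratio of 2.45 (2.05 to 2.94) beside 1.12. Against WT left ventricle the TKO border zone ratio of Pfkfb3 was 1.11.

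In the lists of antioxidant and NADPH genes (32), mitochondrial and unfolded protein stress genes (21) and hypoxia and heat shock genes (21), 0 were at least 2-fold higher or lower, with medians of 0.933, 0.958 and 1.1.

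Circadian clock genes differed in a block between the TKO border zone and TKO left ventricle. In the clock, ARNTL (BMAL1) with CLOCK or NPAS2 binds E-boxes and drives the Per, Cry and PAR-bZIP genes (Dbp, Tef, Hlf), and PER and CRY proteins then hold the activators back, so the 2 arms peak at opposite times of day. Of 19 clock genes 7 were at least 2-fold higher (Per1, Per2, Per3, Ciart, Dbp, Tef and Hlf) and 2 lower (Arntl and Npas2), while 0 were 2-fold different in WT, against WT left ventricle or against the TKO remote zone. The E-box searched was CACGTG, which reads the same on both strands, in RefSeq promoter entries (GRCm38.p6) of 250 bases before to 50 after each start. It was found in 5 of the 16 clock genes with an entry (31.25%) and in 2187 of 27025 genes (8.09%). The 5 were Per1, Tef and Ciart, which were among the higher genes, and Cry1 and Bhlhe41, which were not. No match was found for the higher genes Per2, Per3, Dbp and Hlf, so the matches did not follow the ratios. The lines below give 4 of the upstream matches, all chosen from higher genes, with the E-box in capitals and 12 bases on each side.
Per1, chr11:69098771-69098800, plus strand: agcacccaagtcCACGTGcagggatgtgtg
Tef, chr15:81802534-81802563, plus strand: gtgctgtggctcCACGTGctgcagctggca
Ciart, chr3:95882327-95882356, minus strand: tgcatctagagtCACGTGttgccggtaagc
Ciart, chr3:95882269-95882298, minus strand: cgcagggggaggCACGTGcagaaccgcacg
A match describes these letters only and is not evidence of binding in these hearts.

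Per2 (chr1:91415982-91459324, minus strand), a repressor of the clock, measured 6.33, 43.5, 45.0 and 49.9 CPM in TKO left ventricle, remote, border and infarct zone and 30.9, 32.9, 36.3 and 41.6 CPM in WT. Only the TKO left ventricle was low, and the ratio was 7.11 (6.04 to 8.41) in TKO and 1.17 in WT. Per1 measured 24.6, 83.8, 87.4 and 107 CPM in TKO and 68.5, 70.1, 79.9 and 97.3 CPM in WT, and its ratios were 3.55 (3.26 to 3.88) and 1.17. Ciart, a repressor recruited to the CLOCK complex, had a ratio of 3.43 (2.82 to 4.20), and Tef, a PAR-bZIP factor, 2.19 (2.09 to 2.28), beside 1.19 and 0.894 in WT. Arntl ran opposite, at 9.81, 1.39, 1.96 and 1.93 CPM in TKO and 2.99, 0.756, 1.69 and 3.31 CPM in WT, with a ratio of 0.199 (0.147 to 0.266) beside 0.564. Npas2 had a ratio of 0.243 (0.172 to 0.337) beside 0.856, and Clock itself, whose transcript cycles little, 0.979. The 2 arms were thus displaced in opposite directions in 1 library, TKO left ventricle. The labels give no time of day of collection.

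**Figure D4:**
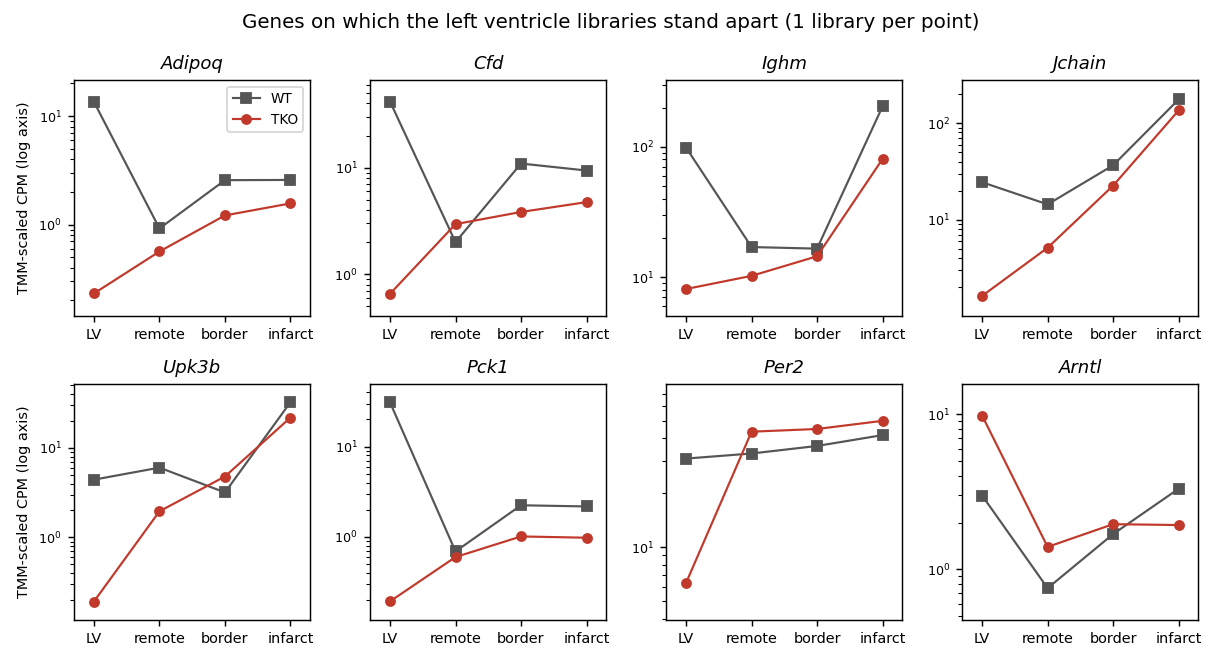
Scaled CPM (log axis) in left ventricle, remote, border and infarct zone, WT as grey squares and TKO as red circles, for the fat genes Adipoq, Cfd and Pck1, the antibody genes Ighm and Jchain, the mesothelial gene Upk3b and the clock genes Per2 and Arntl. The TKO left ventricle point is the lowest of its genotype in 7 panels and the highest in the Arntl panel, whereas WT left ventricle is high for Adipoq, Cfd, Pck1 and Ighm.

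Markers of fat showed how far the reference library set a ratio. Against TKO left ventricle 6 of 9 adipocyte markers (Pck1, Adipoq, Car3, Cyp2e1, Cfd and Cidec) were at least 2-fold higher in the border zone, with a median of 4.33, and the median was 0.118 against WT left ventricle and 1.06 against the TKO remote zone. Adipoq, the adiponectin gene, had 6, 17, 36 and 56 counts along the TKO regions and 370, 28, 79 and 109 in WT. Cfd, the fat-derived complement factor D, had 17, 89, 114 and 170 counts in TKO and 1144, 61, 337 and 398 in WT. TKO left ventricle held the least of both and WT left ventricle the most, so the median ratio of the list in WT was 0.231. The list as a whole, led by Fabp4, which endothelial cells also express, summed to 562 CPM in TKO left ventricle and 602 in the TKO border zone, with 951 in WT left ventricle. None of the 9 was at 0 in TKO left ventricle. Its part in the ratios of complement and lipid genes was not tested.

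Markers of the surface of the heart also depended on the reference. Of 13 epicardial and mesothelial markers 4 (Bnc1, Lrrn4, Upk1b and Upk3b) were at least 2-fold higher than in TKO left ventricle, and against the TKO remote zone Bnc1, Upk1b and Upk3b were, with Msln. Upk3b, a uroplakin of mesothelial cells, had 5, 59, 142 and 778 counts along the TKO regions and 121, 183, 98 and 1365 in WT, a ratio of 24.8 (10.4 to 77.5) against TKO left ventricle and 1.08 against WT left ventricle. The list summed to 91.0 CPM in TKO left ventricle and 85.1 in the border zone, most of it from genes that are not specific to the surface, such as Ezr. Endothelial markers had a median of 1.01 with 1 of 25 at least 2-fold lower, Cldn5, a tight junction protein, which measured 32.8 CPM in TKO left ventricle and 14.1 to 23.2 CPM in the other 7 libraries. Mural cell markers had a median of 1.29 with 2 of 15 higher (Kcnj8 and Cnn1, neither at least 2-fold against WT left ventricle), Schwann cell markers a median of 0.912 with 2 of 9 lower (Sox10 and Gfra3), and 7 red blood cell genes a median of 1.21 with 0 at least 2-fold different.

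A pair of epithelial genes stood among those lowest in the TKO border zone. Krt4, a keratin of stratified epithelia, had 131 and 121 counts in TKO left ventricle and remote zone and 0 in the border and infarct zones, and 0, 17, 32 and 0 in WT left ventricle, remote, border and infarct zone. Against a floor of 3 counts the TKO border zone ratio of Krt4 was at most 0.020. Cldn4, an epithelial tight junction protein, had 342, 292, 4 and 6 counts in TKO and 0, 92, 94 and 119 in WT, a ratio of 0.0102 (0.00277 to 0.0264). Krt7 and the neutrophil attractant Cxcl5, chosen after their values were seen, had ratios of 0.120 (0.0781 to 0.179) and 0.140 (0.0985 to 0.194), with infarct zone levels of 7.13 and 6.69 CPM in TKO. These genes were high in the TKO left ventricle and remote libraries and low in WT left ventricle, so the TKO border zone was below its own remote zone as well.

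Several genes at the 2 ends of the ranking had estimated counts that switched between libraries. Among the 12 highest, Itpr1, Aqp4, Birc2, Sap130 and 2900026A02Rik had 0 counts in TKO left ventricle, and Itpr1, the inositol trisphosphate receptor, held 266 in the TKO border zone, at least 77.4 times the floor, with 354 to 524 in the other 6 libraries. Birc2, an inhibitor of apoptosis, had 1 count in WT left ventricle as well, 99 to 479 in the other 6 libraries, and passed the region test (adjusted p = 0.0300 by edgeR). Acap2 had 2 and 309 counts in the pair, with 0 in the TKO remote zone and 285 in WT left ventricle. Genes at 3 counts or fewer in 1 library and at least 100 in another, numbered 194 in the table, 99 of the 575 higher and 42 of the 220 lower. At the low end lay processed copies of ribosomal protein genes: Rps7-ps3 had 2011 counts in TKO left ventricle, 10 in the border zone and 0 in the other 6 libraries, while Rps7 itself had 754 in TKO left ventricle and 5704 to 10221 elsewhere. Rps7-ps3 shares most of its sequence with Rps7, with 15.8% of its 31-base words unique, so the ratio of 7.36 (6.82 to 7.95) for Rps7 depends on how the reads were divided between the pair. Of all genes tested 2890 (22.2%) had under 90% unique 31-base words, and 142 of the 575 higher and 70 of the 220 lower genes did.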

How the data were processed

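Total RNA was isolated with the Direct-zol MiniPrep Plus kit and libraries were made by a service provider. The table deposited by the authors holds estimated counts per gene for 8 libraries. Per the submitters' processing notes and the methods of the study, reads were trimmed with Trim Galore 0.6.5, quantified with kallisto 0.46 and summarised with tximport, and edgeR 3.34.1 was used; the genome build is mm10. Such counts divide reads among similar transcripts by a model, so near-identical genes and single isoforms can switch between libraries.

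From these values, counts were rounded to whole numbers, and the filter kept genes whose mean CPM before scaling reached 1. The kept genes were then scaled with TMM over all 8 libraries (edgeR 4.0.16, R 4.3.3). Ratios are of scaled counts with exact Clopper-Pearson 95% intervals (Python 3.11.15, scipy 1.17.1). A gene was called at least 2-fold different from the ratio after a prior count of 2 in both libraries. Where a library was at 0, a bound was set with a floor of 3 counts in that library (0.116 CPM in TKO left ventricle, 0.101 CPM in the TKO border zone). The region test was edgeR's quasi-likelihood test on all 8 libraries, and DESeq2 1.42.0 was an alternative. Both the ratios and the region test were run on simulated counts. For the ratios these were drawn from the counting model that the intervals assume. For the region test they had the same spread in every gene and no difference between the genotypes. These runs check the calculation and not how the methods behave on these libraries. Gene coordinates are those of GENCODE M21 on GRCm38, in which 127 of the tested IDs were not found. The share of 31-base words unique to a gene was computed from its transcripts, without strand.

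The gene lists, the comparison and the named genes were chosen with earlier results of these data known. Named genes were the 12 highest and 12 lowest ratios among genes with at least 100 counts in the larger library, the most abundant, highest, lowest and 2-fold different members of each list, Tigar and genes the study names, and the 5 largest and 5 smallest TKO over WT ratios of ratios; other genes were chosen after their values were seen. Some genes that the rule names are not reported here. Alternatives were the scaling, the filter, the prior count, the fold limit, the libraries in the region test, DESeq2, and, added after seeing the data, other reference libraries and 2 gene filters.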

Additional observations from a re-analysis of the deposited data

Results flagged for a closer look

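By the 2-fold limit, 33 of all genes tested were higher in TKO and lower in WT, and 43 the reverse. The adipocyte list and the 18 genes given here, which are among those named by rule, lay at least 2-fold one way in the TKO border zone and at least 2-fold the other way in the WT border zone, each against its own left ventricle and after the prior count. With 1 library per group these differences between the genotypes were not tested. The median of the adipocyte markers was 4.33 in TKO and 0.231 in WT. Of its members, 6 shared that pattern: Cidec at 5.70 and 0.157, Cfd at 5.43 and 0.263, Cyp2e1 at 5.16 and 0.112, Car3 at 4.79 and 0.231, Adipoq at 4.33 and 0.194, and Pck1 at 4.19 and 0.0744. Cxcl13, a B-cell attractant, had 5.24 and 0.118, and Cdkn2a, a cell cycle inhibitor, 8.19 and 0.178. A further 4 genes, each with 13 counts or fewer in 2 libraries, were higher in TKO and lower in WT: Acap2 at 74.5 and 0.143, Aqp4 at 65.9 and 0.0547, Rprd2 at 19.8 and 0.0118, and Morc3 at 19.6 and 0.214. Among the genes lower in TKO and higher in WT were Adamts4 at 0.361 and 3.76, Tnni1 at 0.204 and 24.9, ENSMUSG00000092329 at 0.0250 and 89.7, Zfp267 at 0.0150 and 31.2, Cldn4 at 0.0149 and 49.1, and Krt4 at 0.0124 and 17.4.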

How the results depend on the processing

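No paired analysis was possible because each group has 1 library and the labels carry no replicate numbers; for the same reason no replicate could be left out. The scalings left the direction of all 43 list medians in place and moved none of them beyond its limit, with a largest move of 1.03 times. Of 1045 values of 209 named genes under the scaling and prior count alternatives, 0 changed direction and 50 moved. Counts of genes depended on the limits. With no filter, the TKO border zone had 1344 genes higher and 742 lower, and the WT border zone 1411 and 911. At a mean CPM of at least 10 there were 160 and 31 in TKO and 227 and 45 in WT. A 1.5-fold limit gave 1369 and 629 in TKO and 1600 and 847 in WT, and intervals wholly beyond 2-fold gave 234 and 100 in TKO and 359 and 105 in WT. With reference libraries chosen after seeing the data, 303 genes were higher against WT left ventricle, 227 higher and 115 lower against the TKO remote zone, and 140 higher and 81 lower against both left ventricle libraries. Against WT left ventricle the adipocyte median turned to 0.118, and 30 of 139 named 2-fold genes lay in the other direction and 55 stayed 2-fold; against the TKO remote zone 22 and 50 did. The region test gave 6 higher and 0 lower genes without the infarct zone libraries, 0 and 0 with the 4 border zone and left ventricle libraries, and 476 and 100 with the DESeq2 Wald test, beside 87 and 6. The causes of these changes beyond the number of genes or libraries entered were not tested. With 1 library a side, depth limits only the counting error, which is wide for genes under 100 counts.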

Other observations

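Cell cycle and immediate early genes, which mark dividing and recently stimulated cells, differed by 2-fold in few members. Of 33 cell cycle genes E2f1, Mcm5 and Cdkn2a reached 2-fold higher in the TKO border zone, 0 were 2-fold lower, and the median was 1.09 beside 1.33 in WT. Cdkn2a, which encodes the p16 and ARF inhibitors of the cell cycle, had 9, 9, 98 and 75 counts in TKO left ventricle, remote, border and infarct zone and 103, 7, 19 and 79 in WT, so its level followed neither region nor genotype. Of 22 immediate early genes Klf2, Nr4a1 and Nr4a3 were at least 2-fold higher and 0 lower, 17 had a ratio above 1 and the median was 1.33, against 1.09 with WT left ventricle as the reference. Nr4a1, an orphan nuclear receptor, measured 4.52, 23.1, 13.7 and 22.2 CPM in TKO and 12.6, 19.9, 24.3 and 26.5 CPM in WT, again with TKO left ventricle the lowest of the 8 libraries. Of 18 cardiac transcription factor genes 0 were at least 2-fold different, with a median of 0.925.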
